A study of Mus musculus with 4 samples.

Results

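Genes for lipoproteins and plasma carriers that yolk sac endoderm is known for were followed in whole mouse embryos lacking the orphan nuclear receptor Gcnf, now called Nr6a1. The genes were Hnf4a, Mttp, Apob, Apoa1, Apoa4, Apoc2, Apom, Rbp4, Ttr and Afp, and they were taken by name, with no threshold on a measured value, although earlier results of these data were known when the list was drawn up. All 10 were found, on 27 of the 45037 probe sets tested, where a probe set is a group of array probes read as a single value. The series holds 18193 genes with a probe set of their own.

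Total RNA of whole embryos labelled E9.0 was amplified and hybridised to Affymetrix whole-genome mouse arrays, with 2 wt embryos and 2 homozygous Gcnf-/- embryos and 1 array for each embryo. The mutant line is a constitutive knockout kept, with the other lines of the study, on the background that its methods write as C56BL/6, and no agent was given to any embryo used here. The methods collect embryos up to a slightly later stage than the labels, and they take DNA for genotyping from the yolk sac. How much yolk sac endoderm went into the RNA of each embryo is not stated there. Embryos without Gcnf are known to lag in development before they die at midgestation, so that the genotype and a younger stage of the tissues cannot be told apart.

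The visceral endoderm of the yolk sac is an absorptive epithelium that does for the early embryo what liver, gut and placenta do later. It takes up maternal nutrients from its outer face and secretes lipoproteins and carrier proteins towards the embryo from its inner face. Hnf4a is the nuclear receptor at the head of this secretory programme, and Apob, loaded with lipid by the Mttp protein, is the scaffold of the particles. The same genes are later switched on in the liver, which is only budding from the foregut at this stage, so that in whole embryos either tissue can contribute signal.

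Series-wide checks touched these values in a few places. The arrays of a genotype correlated at 0.9973 (wt) and 0.9975 (Gcnf-/-) over probe sets, against 0.9931 to 0.9952 between genotypes. Wt replicate 1 was a female by Xist and the other embryos male. Its poly-A spikes, RNAs added as a control of labelling, read 8.96 against 9.59 to 9.66 on the other arrays, and the 18S ribosomal RNA probe sets read 1.06 higher on the log2 scale in mutants. The 5 Nr6a1 probe sets lay 0.05 to 0.56 above wt in mutants, with no knowledge here of whether they lie in the deleted part, so that the array does not check the genotype. The part of these differences in the results that follow was not tested.

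The lipoprotein and carrier genes leaned lower in Gcnf-/- embryos by small amounts. Hnf4a stood 1.38-fold lower and Apom 1.33-fold lower, the 2 widest differences, whereas Apoa4 and Afp differed by less than the spread between embryos of a genotype. Over the 10 genes, each read from its brightest probe set, 9 lay below wt with a median log2 fold change (Gcnf-/- minus wt) of -0.18. Over all 18193 genes 52.8% lay below wt, with a median of -0.01. Afp was among the 9 on its brightest probe set alone. By the mean of each gene's probe sets, 8 of the 10 genes lay below wt. The array signal measures RNA of the whole embryo, so that fewer endoderm cells and less RNA in each cell cannot be told apart.

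None of the 27 probe sets was called at the thresholds of the study, a limma adjusted p of 0.05 and a change of at least 2-fold, which called 0.382% of all probe sets. With the adjusted p alone 0 of 27 passed again, against 0.975% of all. At an unadjusted p under 0.05 in limma, 12 of the 27 were lower and 0 higher, where 10.3% of all probe sets were lower. The 12 belong to 5 genes, Hnf4a, Mttp, Apoa1, Apom and Ttr. By the brightest probe set of each gene, 3 of 10 were lower at that level, Hnf4a, Apoa1 and Apom, against 11.9% of all genes. Both mutants lay below both wt embryos for 18 of the 27 probe sets and 7 of the 10 genes, whereas 27.3% of all probe sets and 30.4% of all genes did so. The probe sets of a gene read the same RNA, so these counts hold fewer independent readings than their totals. With 2 arrays a group, the smallest two-sided p that an exact permutation test can give for a single gene is 0.333.

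**Figure D1:**
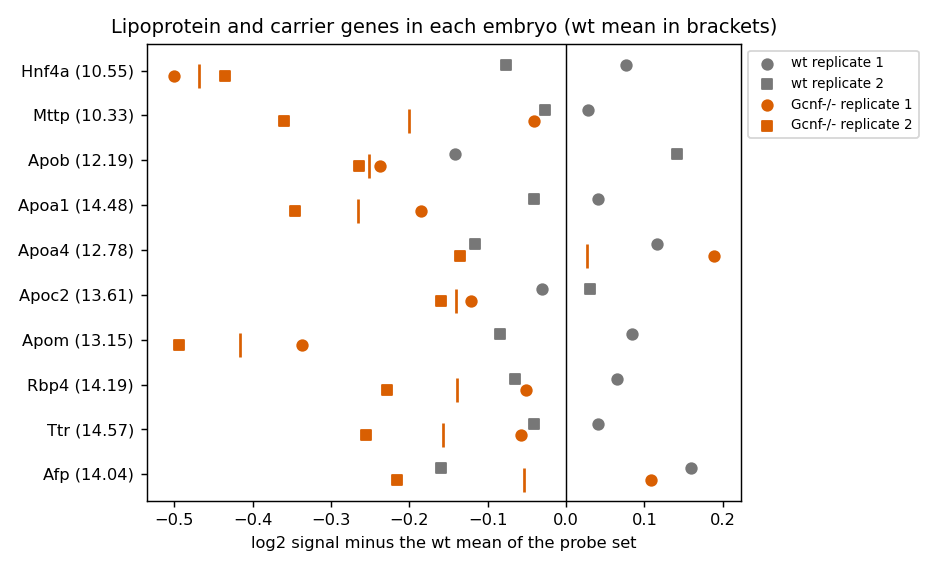
Log2 signal of each embryo minus the wt mean of the probe set (horizontal axis) for the brightest probe set of each gene (rows, with the wt mean log2 signal in brackets). Grey points are wt and orange points Gcnf-/-, circles are replicate 1 and squares replicate 2, and orange bars are mutant means. Hnf4a and Apom show the widest gaps between genotypes, while the embryos of Apoa4, Rbp4 and Afp overlap.

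The embryos differed within a genotype as well. Each gene was centred on its mean over the 4 arrays. The 10 genes then averaged 0.15 ± 0.10 (SD over genes) in wt replicate 1 and 0.06 ± 0.12 in wt replicate 2. They averaged -0.02 ± 0.13 in Gcnf-/- replicate 1 and -0.19 ± 0.06 in Gcnf-/- replicate 2. Gcnf-/- replicate 2 was the lowest array for 9 of the 10 genes, the exception being Hnf4a, and wt replicate 1 was the highest for 7. Without Gcnf-/- replicate 2 the median log2 fold change was -0.09, with 8 genes below wt. Without Gcnf-/- replicate 1 it was -0.26, with all 10 below wt.

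Hnf4a encodes the nuclear receptor that drives many of the secreted protein genes of visceral endoderm and liver. Its brightest probe set, 1427001_s_at, read 10.63 and 10.47 in the wt embryos and 10.05 and 10.11 in the Gcnf-/- embryos. The genotypes were well apart, by more than the gap between embryos of either genotype. This gave a log2 fold change of -0.47 ± 0.08 (moderated SE, n = 2 per genotype, 95% interval -0.68 to -0.25, limma adjusted p = 0.0824).

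Of the 3 dimmer Hnf4a probe sets, 2 lay the same way. The probe set 1427000_at read 8.47 and 8.20 in wt and 7.77 and 7.67 in Gcnf-/- embryos, a 1.53-fold difference. The probe set 1421983_s_at stood at -0.49 ± 0.12 on the log2 scale. The last, 1450447_at, read 6.47 and 6.49 in wt and 6.58 and 6.55 in mutants, below the median signal of all probe sets (6.84), and its log2 fold change was 0.08 with an interval of -0.09 to 0.26. Where they lie on the Hnf4a transcripts is not known here. With the arrays left out in turn, the brightest probe set ran from -0.54 (without wt replicate 2) to -0.39 (without wt replicate 1). It passed an adjusted p of 0.05 with an intensity trend in the variance (adjusted p = 0.0215) and among brighter probe sets alone (adjusted p = 0.0334), short of 2-fold in both, and stood at 0.0678 to 0.369 in the other settings.

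Hnf4a is transcribed from alternative promoters, and both windows that RefSeq gives are shown because its RNA had the widest difference of the set. A window runs from 250 bases before a RefSeq start to 50 bases after it (mouse build GRCm38.p6). Capitals mark any match, on either strand, to 8 words: AGGTCA, the unit bound by nuclear receptors; its direct repeat with no base between, the element known for Gcnf itself; its direct repeat with 1 base between; CAAAGTCCA for Hnf4a; AGATAA for GATA factors; TGTTTAC and TGTTTGC for forkhead factors; and TATAAA, the TATA box. Position 1 is the RefSeq start, and a match is given by the lowest position it covers.
Hnf4a, upstream window, chr2:163506607-163506906, plus strand: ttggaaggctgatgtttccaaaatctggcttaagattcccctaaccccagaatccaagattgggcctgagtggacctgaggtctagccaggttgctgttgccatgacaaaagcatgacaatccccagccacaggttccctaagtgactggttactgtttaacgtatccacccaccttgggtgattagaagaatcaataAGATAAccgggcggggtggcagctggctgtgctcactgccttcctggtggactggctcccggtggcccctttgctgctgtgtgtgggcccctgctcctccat
Hnf4a, downstream window, chr2:163546905-163547204, plus strand: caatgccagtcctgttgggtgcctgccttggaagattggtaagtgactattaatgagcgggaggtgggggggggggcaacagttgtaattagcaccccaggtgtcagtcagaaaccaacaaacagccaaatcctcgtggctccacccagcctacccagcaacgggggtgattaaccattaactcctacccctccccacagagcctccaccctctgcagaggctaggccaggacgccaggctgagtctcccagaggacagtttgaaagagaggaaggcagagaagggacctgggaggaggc

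The upstream window held a single match, AGATAA at -52, a word found in 11.2% of all 32851 windows. The downstream window held none of the 8 words, and neither window held the AGGTCA unit. The search of the 10 genes left 1 chromosome out, a filter that was not applied to the 32851 windows. It took 11 windows for 9 of the genes and none for Ttr. The AGGTCA unit lay in 1 of the 11 (Apoc2, at -115 and 43), as in 16.3% of all windows. The repeat with no base between lay in 0 of 11 and 0.00609% of all, the repeat with 1 base between in 0 of 11 and 0.0396%, and CAAAGTCCA in 0 of 11 and 0.475%. A match or its lack describes only these letters in these windows.

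**Figure D2:**
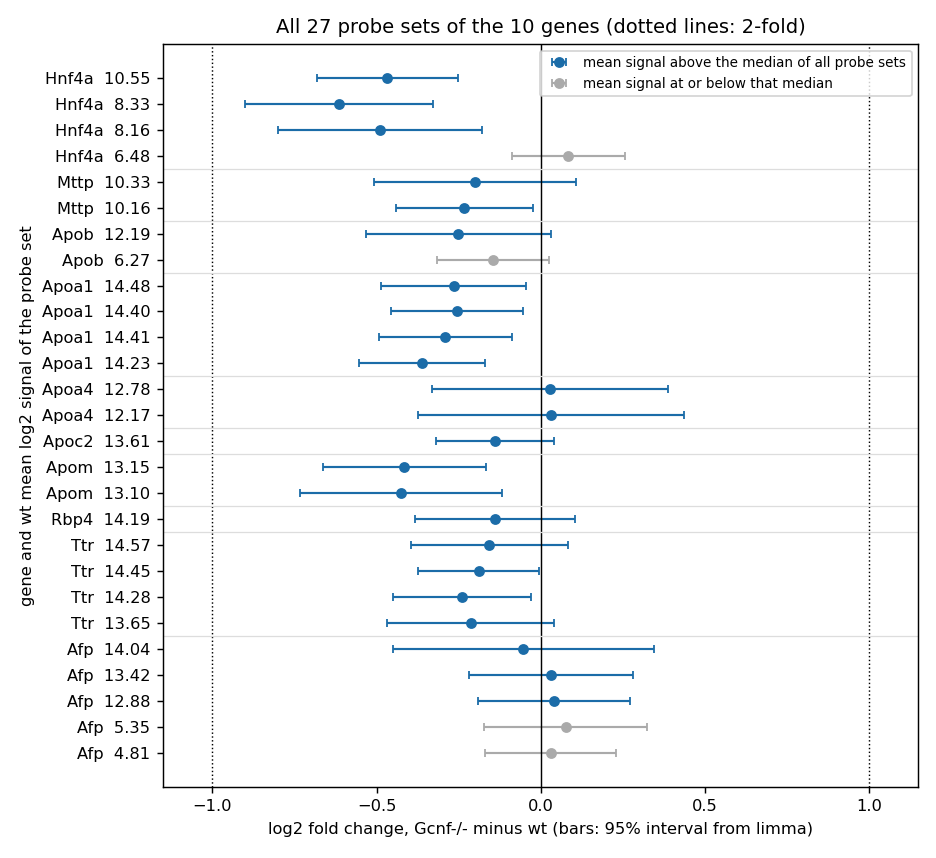
Log2 fold change (horizontal axis, Gcnf-/- minus wt, n = 2 embryos per genotype) of all 27 probe sets, grouped by gene and labelled with their wt mean log2 signal. Bars are 95% intervals from limma, grey marks the 4 probe sets at or below the median signal of the array, and dotted lines mark 2-fold. No point reaches 2-fold, and the lowest, an Hnf4a probe set, is at -0.61.

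Mttp and Apob together start a lipoprotein. Mttp encodes the subunit of the microsomal transfer protein that loads lipid onto Apob as it enters the endoplasmic reticulum. Its brighter probe set, 1419400_at, read 10.36 and 10.30 in wt embryos and 10.29 and 9.97 in Gcnf-/- embryos. On this probe set the first mutant was thus next to wt and the other clearly lower. The log2 fold change was -0.20 ± 0.12 (95% interval -0.51 to 0.11, limma adjusted p = 0.428). It was -0.04 without Gcnf-/- replicate 2 and -0.36 without Gcnf-/- replicate 1. The second Mttp probe set, 1419399_at, stood at -0.23. There both mutants (9.99 and 9.86) were below both wt embryos (10.20 and 10.11).

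Apob, the non-exchangeable scaffold of chylomicrons and very low density particles, read 12.05 and 12.33 in wt and 11.95 and 11.93 in Gcnf-/- embryos on 1455593_at. The mutants were alike and below both wt embryos, which themselves differed by 0.28. Its log2 fold change was -0.25 ± 0.11 (95% interval -0.53 to 0.03, adjusted p = 0.292). It was -0.11 without wt replicate 2 and -0.39 without wt replicate 1. A dim second probe set, 1457554_at, stood at -0.15.

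The exchangeable apolipoproteins, which move between particles, did not all lie the same way. Apoa1, the main protein of high density lipoprotein, read 14.52 and 14.44 in wt and 14.30 and 14.13 in Gcnf-/- embryos on 1419233_x_at. Both mutants were below both wt embryos on this and on the 3 other Apoa1 probe sets. The log2 fold change was -0.27 on the brightest (adjusted p = 0.192), -0.25 on 1438840_x_at, -0.29 on 1455201_x_at and -0.36 on 1419232_a_at (adjusted p = 0.102). These probe sets read 13.8 to 14.5 on arrays whose brightest probe set reached 15.1 to 15.2. Signals near the top of an array are known to compress differences, and 4 of the 10 genes (Apoa1, Rbp4, Ttr and Afp) averaged 14 or more.

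Apoa4, a lipid-carrying protein best known from the intestine, showed no lean. It read 12.90 and 12.66 in wt and 12.97 and 12.65 in Gcnf-/- embryos on 1436504_x_at. The embryos overlapped, each genotype having a higher and a lower one. The log2 fold change was 0.03 ± 0.14 (95% interval -0.33 to 0.39, adjusted p = 0.948), and the second probe set, 1417761_at, gave 0.03 as well. Apoc2, the cofactor that activates lipoprotein lipase, read 13.57 and 13.64 in wt and 13.48 and 13.45 in Gcnf-/- embryos on 1418069_at. Its embryos were close together in each genotype and its log2 fold change was small, -0.14 ± 0.07 (95% interval -0.32 to 0.04, adjusted p = 0.345).

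Apoa1 and Apoa4 are near neighbours on a chromosome, and so are Apoc2 and other apolipoprotein genes. On the reference assembly (GRCm38.p6) the order is Apoa1, Apoc3, Apoa4 and Apoa5, with no other gene starting between them. Apoc3, an inhibitor of lipoprotein lipase, read 10.42 and 10.04 in wt and 9.61 and 9.44 in Gcnf-/- embryos, a log2 fold change of -0.71 ± 0.15 (limma adjusted p = 0.0985). It thus stood 1.63-fold lower between Apoa1 at -0.27 and Apoa4 at 0.03, with Apoa5 at -0.13.

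In the other cluster, from Apoc2 on, the order is Apoc2, Apoc4, Apoc1 and Apoe. Here Apoc2 stood at -0.14, Apoc4 at 0.00, Apoc1 at 0.52 and Apoe, a ligand of lipoprotein receptors, at 0.06. Apoc1 read 10.80 and 10.96 in wt and 11.46 and 11.34 in Gcnf-/- embryos, 1.43-fold higher without passing (adjusted p = 0.0814). From Apoc2 to Apoe, neighbours thus read on both sides of wt. In the first cluster Apoa1, Apoc3 and Apoa5 read below wt, while Apoa4 showed no lean. The differences between neighbouring genes were not tested.

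**Figure D3:**
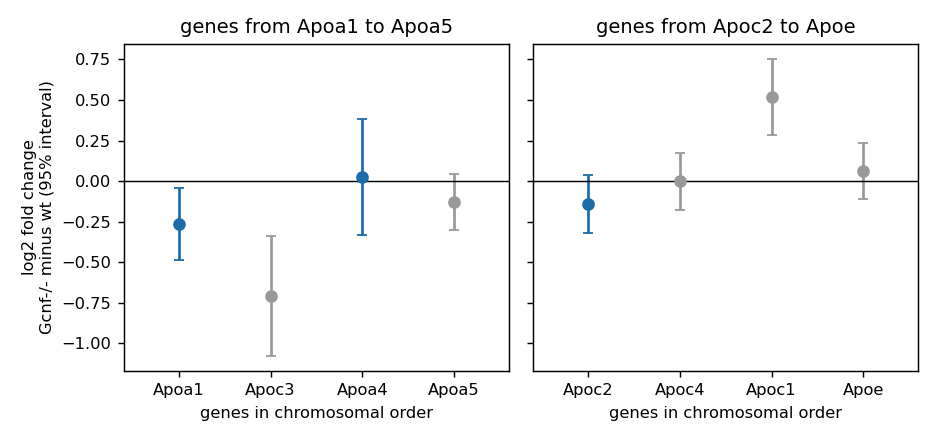
Log2 fold change (vertical axis, Gcnf-/- minus wt, n = 2 embryos per genotype, bars are 95% intervals from limma) of the genes of 2 apolipoprotein clusters in chromosomal order, not to genomic scale. Blue marks Apoa1, Apoa4 and Apoc2 and grey their neighbours. Apoc3 at -0.71 lies between Apoa1 and Apoa4, and Apoc1 at 0.52 lies between Apoc4 and Apoe.

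The start of Apoa1 is shown as the member of its cluster that stood below wt on every probe set. The capitals are as above.
Apoa1, chr9:46228380-46228679, plus strand: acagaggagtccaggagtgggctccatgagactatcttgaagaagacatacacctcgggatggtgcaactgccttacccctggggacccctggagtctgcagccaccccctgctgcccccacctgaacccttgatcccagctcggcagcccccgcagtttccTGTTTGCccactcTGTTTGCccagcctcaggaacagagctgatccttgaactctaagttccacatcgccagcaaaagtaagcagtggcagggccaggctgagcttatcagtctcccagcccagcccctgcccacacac

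It held the forkhead word TGTTTGC at -88 and again at -75. That word lay in 3 of the 11 windows, those of Apoa1, Apob and Afp, and in 5.07% of all windows. The Apoa4 window, by comparison, held none of the words searched.

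Apom and Rbp4 are both lipocalins, small barrel-shaped proteins that hold a lipid. Apom carries sphingosine 1-phosphate on high density lipoprotein. Its brighter probe set, 1419096_at, read 13.24 and 13.07 in wt and 12.82 and 12.66 in Gcnf-/- embryos. Both mutants were below both wt embryos, and each pair differed by less than the genotypes did. For Apom the log2 fold change was -0.42 ± 0.10 (moderated SE, 95% interval -0.66 to -0.17, limma adjusted p = 0.117), and the second probe set, 1419095_a_at, gave -0.43. Apom passed an adjusted p of 0.05 with an intensity trend alone (adjusted p = 0.0316), short of 2-fold, and its adjusted p was 0.0512 to 0.419 in the other settings. With the arrays left out in turn it ran from -0.50 to -0.33.

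Rbp4, which carries retinol in blood, stood closer to wt. It read 14.25 and 14.12 in wt and 14.13 and 13.96 in Gcnf-/- embryos on its only probe set, 1426225_at. The genotypes overlapped, the first mutant lying just above the second wt embryo. Its log2 fold change was -0.14 ± 0.10 (95% interval -0.38 to 0.10, adjusted p = 0.485).

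Ttr binds Rbp4 in the circulation and also carries thyroid hormone. Its brightest probe set, 1454608_x_at, read 14.61 and 14.53 in wt and 14.52 and 14.32 in Gcnf-/- embryos. The groups did not overlap, but the nearest wt and mutant embryos were almost level on this probe set. The log2 fold change was -0.16 ± 0.09 (95% interval -0.40 to 0.08, adjusted p = 0.426), and the other probe sets gave -0.19 (1459737_s_at), -0.24 (1451580_a_at) and -0.21 (1455913_x_at). On 1459737_s_at the mutants (14.31 and 14.22) stood further below both wt embryos (14.46 and 14.44). So they did on 1451580_a_at (14.10 and 13.98 against 14.32 and 14.23). Without Gcnf-/- replicate 2, Rbp4 stood at -0.05 and the brightest Ttr probe set at -0.06. Without Gcnf-/- replicate 1 they stood at -0.23 and -0.26, and without wt replicate 1 Rbp4 stood at -0.07.

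Afp, the fetal relative of albumin and the main secreted protein of visceral endoderm, did not lean with the others. It read 14.20 and 13.88 in wt and 14.15 and 13.83 in Gcnf-/- embryos on 1416646_at. The spread between embryos of a genotype was several times the difference between genotypes. The log2 fold change was -0.05 ± 0.16 (95% interval -0.45 to 0.34, adjusted p = 0.898). Of the other probe sets, 1416645_a_at gave 0.03 and 1436879_x_at 0.04, and the dim 1436881_x_at and 1436880_at gave 0.08 and 0.03. For both genes the interval of the brightest probe set takes in a difference of the size seen for Apoa1, -0.27. Afp and Apoa4 are thus not shown to be equal between genotypes. The Afp intervals were narrower on 1416645_a_at (-0.22 to 0.28) and 1436879_x_at (-0.19 to 0.27), and there they stopped short of the Apoa1 value. The start of Afp is shown beside that of Apoa1 because the gene did not share its lean.
Afp, chr5:90490464-90490763, plus strand: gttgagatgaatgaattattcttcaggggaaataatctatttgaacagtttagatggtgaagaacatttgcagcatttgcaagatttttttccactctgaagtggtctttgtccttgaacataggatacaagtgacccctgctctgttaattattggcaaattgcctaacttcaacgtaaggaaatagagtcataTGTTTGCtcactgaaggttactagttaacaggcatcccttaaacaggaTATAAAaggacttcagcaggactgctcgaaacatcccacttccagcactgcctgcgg

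This window held TGTTTGC at -55 and TATAAA at -7, the latter a word of 13.6% of all windows. The forkhead word also lay in the window of Apoa1, and whether it bears on the level of either gene was not tested. Alb, the neighbouring albumin gene, read below the median signal and stood at 0.10.

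Of other genes, the 5 with profiles most like the mean profile of the 10 over the 4 arrays, by Euclidean distance after centring, were Tasor2 (0.0024), Dis3l (0.0072), Cd68 (0.0105), Fndc4 (0.0179) and Bhlhb9 (0.0213). They were sought among 11628 genes with a mean signal above the median, and over 4 arrays a close match is easily found.

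Lists of related genes put these values in context, each gene read from its brightest probe set and no list tested as a whole. Other apolipoproteins lay mostly below wt, 7 of 9 (median log2 fold change -0.13), with 0 called and 2 lower and 1 higher at an unadjusted p under 0.05. Besides Apoc3 and Apoc1 this was Apoa2, the second protein of high density lipoprotein, at -0.32 (adjusted p = 0.155). Lipoprotein assembly genes were near wt, 7 of 10 measured below it (median -0.05, 0 called), with Dgat2, an enzyme that makes triglyceride, at -0.32, the vesicle coat gene Sec24d at 0.21 and the cargo receptor gene Surf4 at -0.14. P4hb, the partner subunit of the Mttp protein, stood at 0.02.

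Genes that take up or remodel lipoproteins were divided, 6 of 12 measured below wt and 6 above (median 0.11, 0 called, 3 lower and 6 higher at an unadjusted p under 0.05). Lpl, which releases fatty acids from circulating particles, passed the adjusted p at 0.53 ± 0.07 (1.45-fold higher, limma adjusted p = 0.0493), short of 2-fold. Neither it nor any gene named below as passing did so with the replicate number as a block or without wt replicate 1 or either mutant, fits in which 0 of all probe sets passed, and 9 passed without wt replicate 2. Lrp2, an endocytic receptor of the absorptive face, stood at 0.52 and the cholesterol exporter gene Abca1 at 0.46, neither passing. Of other plasma carriers, 7 of 12 measured were below wt (median -0.06, 0 called), with Vtn at 0.63, Ahsg at -0.21 and the fibrinogen chain gene Fga at -0.45. Retinol handling genes had 6 of 8 measured below wt (median -0.16, 0 called and 4 lower at an unadjusted p under 0.05). Among them were the intracellular retinoic acid binders Crabp1 at -0.55 (adjusted p = 0.0712) and Crabp2 at -0.52 (adjusted p = 0.069), and Bco1, which cleaves carotene, at -0.66 (adjusted p = 0.11).

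The other transcription factors of endoderm and liver did not lie with Hnf4a. Only 2 of 15 measured were below wt (median 0.17, 0 called, 5 higher and 0 lower at an unadjusted p under 0.05). Of the 15, 9 had a mean signal above the median of all probe sets, and the rest were dim. Gata6, an early endoderm factor, stood at 0.57 ± 0.08 (adjusted p = 0.0526), and Cebpa at 1.05 ± 0.15 (adjusted p = 0.0549). Nr5a2, another nuclear receptor of liver and endoderm, stood at 0.28 and the forkhead genes Foxa1, Foxa2 and Foxa3 at 0.10, 0.16 and 0.06.

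The absorptive side of visceral endoderm was set beside the secreted proteins. All 16 of its genes had a mean signal above the median of all probe sets, as did each of the 10 genes. By the brightest probe set, 11628 of the 18193 genes lay above that median without counting the 10. Maturing hepatocyte genes did so for 2 of 10 (Arg1 and Tdo2) and trophoblast genes for 1 of 6 measured (Plac1). Above it were 10 of 12 gut endoderm genes and 7 of 7 measured genes of the embryo proper. The same held for 10 of 10 parietal endoderm genes and 10 of 10 measured primitive erythroid genes. RMA gives no call of presence, and probes differ in brightness, so that this describes signal and does not show which tissues were in the samples.

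The absorptive genes were divided between the genotypes, 7 of 16 below wt and 9 above (median 0.10, 0 called, 2 lower and 6 higher at an unadjusted p under 0.05). Slc2a2, the glucose transporter of liver and visceral endoderm, read 12.33 and 12.20 in wt and 11.60 and 11.50 in Gcnf-/- embryos. Both mutants were well below wt, and it passed the adjusted p at -0.72 ± 0.08 (1.64-fold lower, limma adjusted p = 0.0438), short of 2-fold. In the other direction, the water channel gene Aqp8 stood 2.59-fold higher without passing (adjusted p = 0.0656) and Cited1, a transcriptional cofactor, at 0.53 (adjusted p = 0.0581). The endocytic receptor genes Cubn and Amn stood at -0.24 and 0.18, and their adaptor Dab2 at -0.39.

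Markers of other cells that whole embryos could hold are given beside these values. Of parietal endoderm genes 9 of 10 lay above wt (median 0.38, 1 called higher), and their mean log2 signal was 9.94 in both wt embryos and 10.37 and 10.32 in Gcnf-/- embryos. Pth1r, the receptor of parathyroid hormone, rose 2.44-fold (limma adjusted p = 0.0133), with Sparc at 0.65 and Thbd at 0.72. Of gut endoderm genes 9 of 12 were not below wt (median 0.10), and Sox17 rose 2.74-fold (adjusted p = 0.0338). Epcam, an adhesion gene of epithelia, passed the adjusted p alone at 0.63 (adjusted p = 0.0414), and the gut hormone gene Pyy stood at -0.43.

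All 10 primitive erythroid genes measured, which mark the blood made in the yolk sac, lay above wt (median 0.42, 0 called, 6 higher at an unadjusted p under 0.05). Nfe2 stood at 0.90, Alas2 at 0.98 and Epor at 0.63, and their list had a mean log2 signal of 11.19 and 11.41 in wt against 11.79 and 11.69 in Gcnf-/- embryos. Maturing hepatocyte genes stayed near wt with 4 of 10 below it (median 0.03), Cyp3a11 at -0.23, Cps1 at 0.33 and Pck1 at 0.23. Trophoblast and decidua genes had 3 of 6 measured below wt (median -0.02), with Plac1 passing the adjusted p alone at 0.96 (adjusted p = 0.0378), Ascl2 at 0.32 and Psg17 at -0.22. Of the embryo proper, Tbx6 stood at 0.71, Tnnt2 at 0.52 and Meox1 at -0.62 (median of the list 0.31). The part of cell makeup in the lean of the lipoprotein and carrier genes was not tested.

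**Figure D4:**
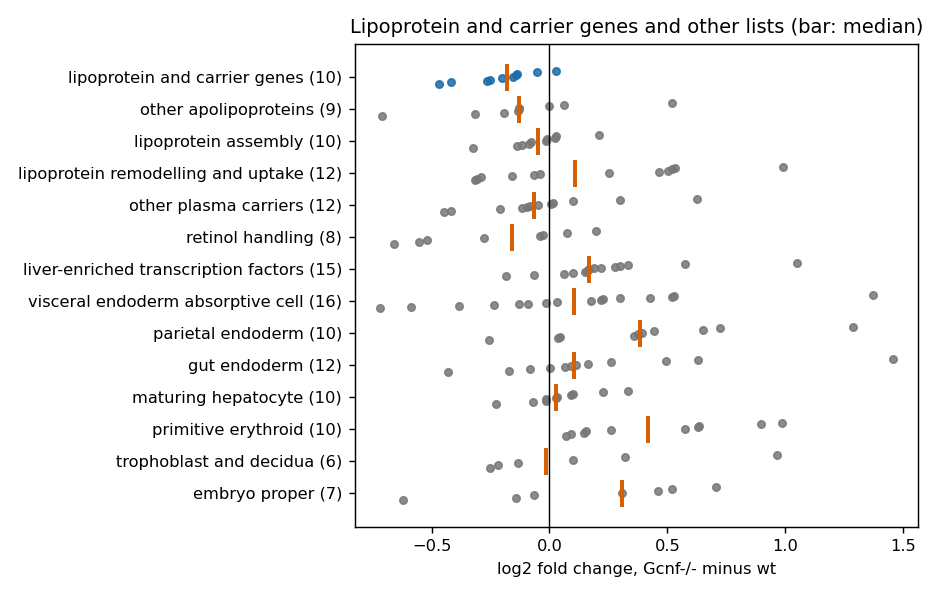
Log2 fold change (horizontal axis, Gcnf-/- minus wt) of each measured gene (points) of the 10 lipoprotein and carrier genes (blue) and of 13 other lists (grey), with the number of genes measured in brackets and the list median as an orange bar. The lipoprotein and carrier genes lie below or close to wt with a median of -0.18, whereas primitive erythroid genes lie above it with a median of 0.42.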

How the data were processed

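RNA of 4 whole embryos was read on Affymetrix whole-genome mouse arrays. The authors deposited log2 values made with RMA, per the labels, which corrects background, makes array distributions alike and summarises each probe set, so that a shift of most transcripts together is removed. For the RMA version and genome build, the sources used here give nothing. The number of arrays limits the precision.

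Of 45101 probe sets, 64 controls were left out, which gave 45037, of which 34945 had a single symbol in the platform annotation, 932 several and 9160 none. Symbols were checked by Entrez identifier against GRCm38.p6 (99.4% matched, 0 changed). A gene was read from its probe set with the highest mean, which gave 18193 genes. The log2 values of all probe sets were fitted by genotype in R 4.3.3 with limma 3.58.1 (lmFit, eBayes). P-values took the Benjamini-Hochberg adjustment, and probe sets were called at an adjusted p of 0.05 and 2-fold, as in the study. The fit was tested on simulated data. Promoter windows came from RefSeq.

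The 10 genes and the 13 other lists (156 entries, of which 19 had no probe set of their own matched here) were chosen with earlier results of these data known. The text names every probe set of the 10 genes, the called genes and the 3 smallest p of each list, and the 5 nearest profiles, and some list members besides these were named after their values were seen. Replicates were taken as separate embryos. Their litters are unknown here, so that p-values measure the spread between these embryos. The fit was repeated with a block for the replicate number, with single arrays left out, after repeated quantile normalisation or median centring, with robust eBayes or an intensity trend, and among brighter probe sets alone. Further alternatives dropped the fold threshold, kept only probe sets with the plain suffix _at (without s, x or a), or read a gene from its mean or its lowest-p probe set.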

Additional observations from a re-analysis of the deposited data

How the results depend on the processing

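Across 14 alternatives the median log2 fold change of the genes measured (8 with the plain suffix _at alone, otherwise 10) ran from -0.26 to -0.09. Each move was under the SD between replicates (0.09). That SD comes from the same 4 arrays, so that leaving 1 of them out could hardly move the median by more. Of their probe sets 0 were called in the 12 alternatives that give such a count, the fit without the fold threshold included. With the arrays left out in turn, which assumes that a lone embryo varies like the other genotype, the median ran from -0.26 to -0.09, the genes below wt from 8 to 10 and the calls from 0 to 0. With the replicate number as a block, the values were -0.18, 9 and 0. Whether same-numbered embryos share a litter or a batch is not known here. Their deviations from the genotype means correlated at 0.06 over probe sets, which with 2 pairs cannot decide it. Over all probe sets the block called 0 against 172 without it, and 0 to 9 were called with an array left out. The calls outside the 10 genes thus mostly rest on all 4 embryos. Hnf4a, Mttp, Apob, Apoa1, Apoc2, Apom, Rbp4 and Ttr kept their side of wt in every alternative that measured them. Some alternatives could not change a side. The block, the intensity trend, robust eBayes, brighter probe sets alone and the dropped fold threshold left every fold change as it was. Afp turned to 0.11 without wt replicate 1, 0.11 without Gcnf-/- replicate 2, 0.0245 as the mean of its probe sets and 0.0757 by its lowest-p probe set, and Apoa4 to -0.09 without wt replicate 2 and -0.14 without Gcnf-/- replicate 1. With the arrays left out in turn Afp ran from -0.22 to 0.11 and Apoa4 from -0.14 to 0.19. The cause was not tested. With an intensity trend 7 of the 27 probe sets (of Apom, Apoa1, Hnf4a and Ttr) passed the adjusted p alone, against 2694 of all 45037, and among brighter probe sets alone 3 of 23 (of Apoa1 and Hnf4a) did, against 2397 of all 22518. Apoa1 and Ttr have no probe set with the plain suffix _at, so that alternative did not measure them. Median centring moved the median of all probe sets by -0.02.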
